A study of Mus musculus with 30 samples.

Results

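The genes described here are 35 genes of the hypoxia response and of glycolysis: glycolytic enzymes, transporters of glucose and lactate, and genes induced by low oxygen. They were chosen by gene symbol out of 14118 genes in the count matrix, and all 35 were present and passed the low count filter of every fit. They were measured by bulk RNA-seq in 30 libraries, made from 6 cell populations sorted out of each of 5 mammary adenocarcinomas of strain FVB/N-Tg(MMTVPyVT)634Mul/J, so n = 5 in every group. In this strain the MMTV promoter drives the polyoma virus middle T antigen in mammary epithelium, and the transgene was shared by all groups, with no normal tissue among them. The tumours had reached 750 mm3 and carry the numbers 5, 6, 8, 10 and 11, and lists of 5 values below follow that order. The labels give no age or treatment for these animals. Fibroblasts carried CD90 but neither CD45 nor CD31, and were divided by CD34 into CAF1, which lacked it, and CAF2, which had it, where CAF stands for cancer-associated fibroblast. Endothelial cells carried CD31 but not CD45. Macrophages were positive for CD45 and F4/80 and divided into CD206hi with low MHC class II, CD206neg with low MHC class II, and CD206pos with high MHC class II.

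Cells sense oxygen through prolyl hydroxylases that mark the alpha subunits of the hypoxia-inducible factors (HIFs) for destruction. When oxygen falls, the alpha subunits persist, pair with ARNT and bind DNA at short sites near genes for glucose uptake, glycolysis, lactate export, vessel growth and survival. Glycolytic enzymes are also raised by growth and inflammatory signals, and solid tumours are known for poorly oxygenated regions in which stromal cells as well as cancer cells live.

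Total counts ran from 6292411 to 11957076 per library, and the 35 genes took 0.244% to 1.51% of them. Levels are given as CPM, a gene's counts relative to the library total, scaled between libraries by TMM, a method that assumes most genes do not differ. The labelled cell types carried their markers: the summed level of 6 macrophage genes was at least 3011 CPM in every macrophage library and at most 17.1 elsewhere, and that of 7 endothelial genes was at least 1054 in endothelial libraries and at most 99.1 elsewhere. Fibroblast genes (6 in the list) summed to at least 25712 CPM in both CAF groups and to at most 857 elsewhere. Luminal epithelial genes (10 of 10 in the matrix) were present in all groups, at 234 to 1809 CPM in CAF1, 9.82 to 509 in CAF2, 158 to 2124 in endothelial libraries and 26.7 to 1064 in macrophages. In bulk libraries, fewer cells of a type and less RNA per cell cannot be told apart.

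HIFs bind the core letters ACGTG or GCGTG, and these were searched for on both strands of RefSeq promoter windows (build GRCm38.p6) that reach from 250 bases before to 50 bases after a start site. The table held windows for 32 of the 35 genes, and 30 of the 32 (93.75%) had either motif, against 65.8% of the genes in the matrix that have a window and 46.7% of all genes in the table. ACGTG stood in the windows of 71.9% of the 32 genes and 28.7% of genes in the matrix, and GCGTG in 68.8% and 54.3%. A gene can have several windows, and by window either motif stood in 83.3% of 48, against 60.0% for genes in the matrix. The genes were chosen for their known part in the hypoxia response or glycolysis, so these shares describe the choice and test nothing. A CACGTG holds ACGTG on both strands and counts on each. The 150 bases before the start site are shown for 5 genes that mark the main patterns below: Ldha, Pgk1 and Pgam1 were highest in CD206neg macrophages, P4ha2 was high in both fibroblast groups, and Adm was highest in CAF2. All 5 are on the plus strand, at chr7:46845654-46845803 (Ldha), chrX:106186950-106187099 (Pgk1), chr19:41911721-41911870 (Pgam1), chr11:54100774-54100923 (P4ha2) and chr7:110627507-110627656 (Adm), and capitals mark either motif on either strand.
Ldha: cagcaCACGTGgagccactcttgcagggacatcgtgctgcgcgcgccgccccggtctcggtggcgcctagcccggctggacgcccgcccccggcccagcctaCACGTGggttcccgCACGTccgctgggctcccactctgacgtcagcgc
Pgk1: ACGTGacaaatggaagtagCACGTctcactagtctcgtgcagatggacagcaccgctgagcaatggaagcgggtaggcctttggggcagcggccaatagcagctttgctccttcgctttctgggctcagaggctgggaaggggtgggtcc
Pgam1: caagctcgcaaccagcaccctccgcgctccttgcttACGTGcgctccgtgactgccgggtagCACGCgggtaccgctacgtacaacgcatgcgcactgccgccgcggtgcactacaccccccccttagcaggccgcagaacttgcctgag
P4ha2: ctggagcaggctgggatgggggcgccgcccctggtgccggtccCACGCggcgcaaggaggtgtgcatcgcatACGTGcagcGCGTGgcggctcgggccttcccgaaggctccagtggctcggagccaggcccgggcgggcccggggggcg
Adm: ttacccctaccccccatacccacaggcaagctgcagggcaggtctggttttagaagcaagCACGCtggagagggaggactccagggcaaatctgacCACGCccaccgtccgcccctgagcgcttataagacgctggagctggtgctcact
The Ldha stretch held ACGTG 5 times, the Pgk1 stretch 2 times and the Adm stretch GCGTG 2 times. Ldha also has a window for another start site, at chr7:46846832-46847131 and not shown, with GCGTG 2 times and no ACGTG. A match of letters is a description and was not measured as binding.

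Across the 6 populations, CD206neg macrophages held the highest mean level of 18 of the 35 genes, and CAF2 fibroblasts held the lowest mean of 18. The 18 that peaked in CD206neg cells included the enzymes of nearly every step from glucose 6-phosphate to lactate: Gpi1, Pfkl, Aldoa, Tpi1, Gapdh, Pgk1, Pgam1, Eno1, Pkm and Ldha. Endothelial cells were highest for 8 genes, among them Hif1a, Epas1, Hk1 and Ankrd37, CAF1 for Slc2a3, Ldhb, P4ha1 and P4ha2, and CAF2 for Pfkm, Slc16a1 and Adm. The summed level of the 9 enzymes of the common steps (Gpi1, Aldoa, Tpi1, Gapdh, Pgk1, Pgam1, Eno1, Pkm and Ldha) had a median of 10837 CPM in CD206neg libraries (8015 to 16064), 4646 in CD206hi (2881 to 9361) and 3053 in CD206pos (2819 to 4302). It was 4323 CPM in endothelial cells (3548 to 4905), 3842 in CAF1 (3423 to 7069) and 2714 in CAF2 (2280 to 2835). The CAF2 range lay below all other groups except for CD206pos, whose lowest library stood inside it. Per kilobase of exon, Ldha led the set in CD206neg cells at 859 CPM per kb, followed by Aldoa at 706 and Hilpda at 475, while Epas1 stood at 0.32. Aldoa, Tpi1, Gapdh, Pgk1, Pgam1, Eno1 and Ldha have near-identical copies or pseudogenes in the genome, and how the counting divided reads among copies is not given in the sources used here, so their levels are uncertain. Eno1b, a retrocopy of Eno1, was listed at 855 CPM in CD206neg cells against 70.7 for Eno1 itself.

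**Figure D1:**
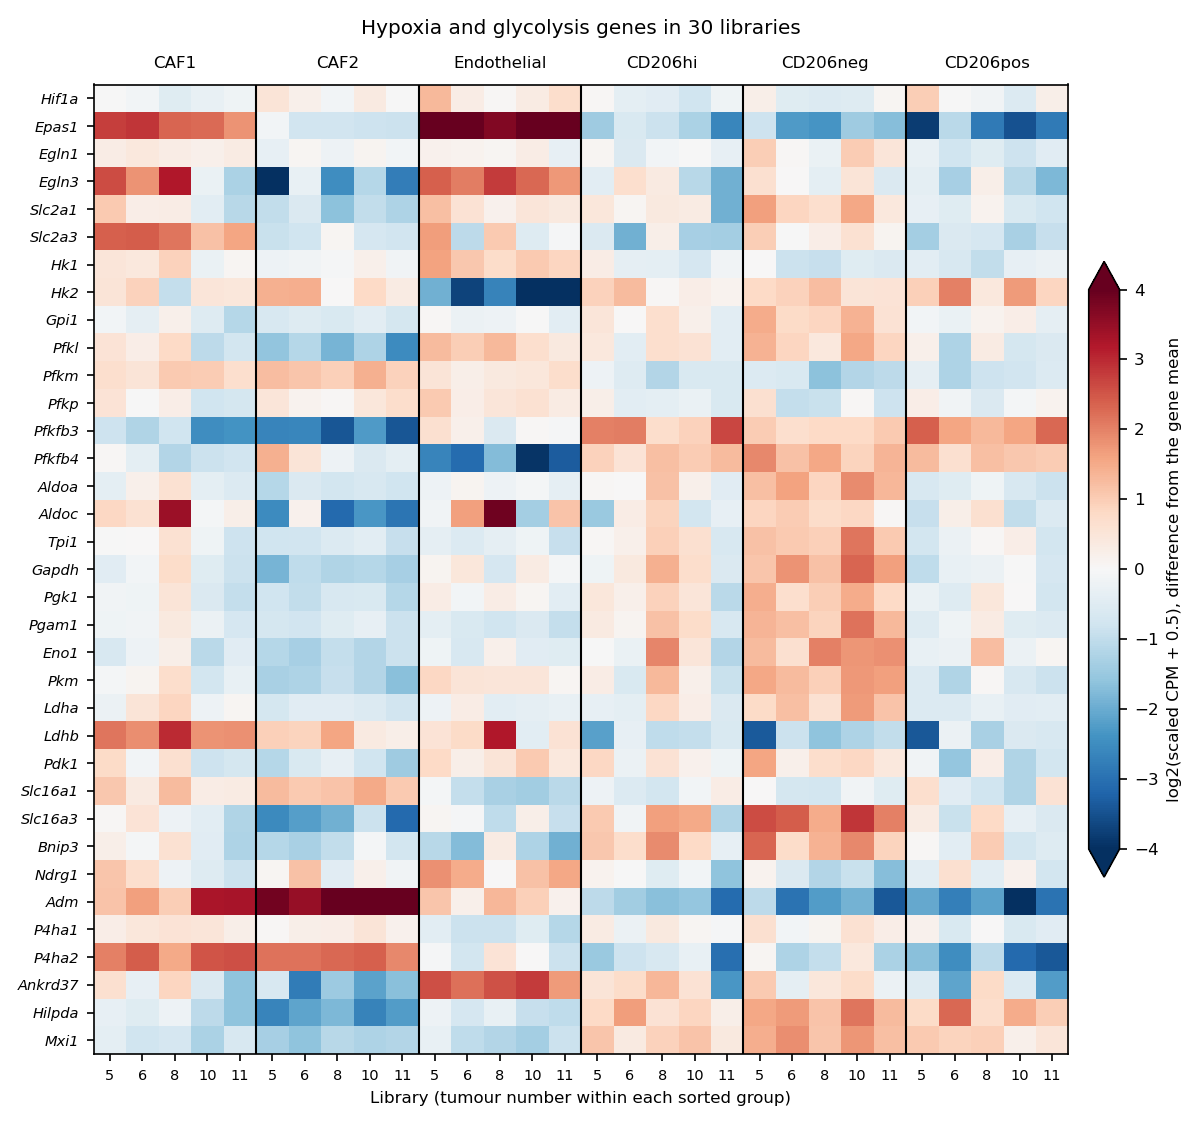
Heat map of the 35 genes (y axis) in 30 libraries (x axis, tumour number within each sorted group). Colour is log2(scaled CPM + 0.5) minus the gene's mean over all libraries, and colours stop at the ends of the scale. Red blocks stand out for Epas1, Egln3 and Ankrd37 in endothelial cells, for Adm in CAF2 and for most glycolytic enzymes in CD206neg macrophages.

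In the fibroblasts, 17 of the 35 genes were higher in CAF1 than in CAF2, 1 was lower (Adm) and 17 did not pass the test. Over all 12149 genes tested, 10.9% were higher in CAF1 and 8.59% lower. The median log2 fold change was 0.74 over the 35 genes and 0.01 over all genes. Significance here and below is an adjusted p under 0.05 in the quasi-likelihood F test of edgeR, adjusted by Benjamini-Hochberg over all genes of the fit, and fold changes are given on the log2 scale with their SE. The higher genes reached from oxygen sensing (3 of 4) and glucose transport (2 of 2) through 3 of 11 upper and 3 of 5 lower glycolytic genes to lactate handling (3 of 5) and other hypoxia-induced genes (3 of 8).

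Among the oxygen sensors, Epas1, which encodes HIF-2 alpha, stood at 46.8, 50.6, 34.8, 32.7 and 23.9 CPM in CAF1 and at 5.96, 3.64, 3.61, 3.42 and 3.33 in CAF2, log2 fold change 3.25 ± 0.25, adjusted p = 8.66e-06. Every CAF1 library was far above every CAF2 library. Hif1a, which encodes HIF-1 alpha, was at 163, 154, 117, 136 and 147 CPM in CAF1 and 238, 193, 155, 214 and 165 in CAF2, and did not pass the test (log2 fold change -0.41 ± 0.16, adjusted p = 0.0935). The HIF hydroxylase Egln3, itself induced by hypoxia, was at 51.3, 28.8, 77.5, 6.59 and 3.01 CPM in CAF1 and 0, 6.42, 1.01, 3.35 and 0.741 in CAF2, log2 fold change 3.94 ± 0.96, adjusted p = 0.0120. Egln3 was thus higher in CAF1 than in CAF2 of every tumour, but its CAF1 level in tumour 11 fell within the CAF2 range and that in tumour 10 just above it. The main oxygen sensor Egln1 rose less, by 0.41 ± 0.12 (SE, adjusted p = 0.0360).

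Both glucose transporters were higher in CAF1. Slc2a1 (GLUT1, the widely expressed transporter) was at 189, 109, 112, 67.4 and 41.98 CPM in CAF1 and 45.8, 60.8, 28.9, 45.9 and 38.3 in CAF2, log2 fold change 1.26 ± 0.34, adjusted p = 0.0198. Slc2a3 (GLUT3, a high-affinity transporter) was at 24.1, 24.3, 19.8, 9.89 and 13.5 CPM in CAF1 and 2.01, 2.18, 4.45, 2.43 and 2.22 in CAF2, log2 fold change 2.79 ± 0.32, adjusted p = 8.77e-05. The 2 groups did not overlap for Slc2a3, while for Slc2a1 the CAF1 library of tumour 11 lay within the CAF2 range.

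In glycolysis, the first enzymes did not pass the test: Hk1, the housekeeping hexokinase, was at 56.2, 53.4, 76.4, 32.7 and 41.8 CPM in CAF1 and 34.9, 36.5, 38.3, 46.2 and 35.7 in CAF2, and Hk2, the inducible one, at 63.95, 85.7, 22.6, 62.8 and 61.3 in CAF1 and 119, 123, 45.3, 78.1 and 56.02 in CAF2. The higher members were Pfkl, the liver-type phosphofructokinase (1.75 ± 0.36, adjusted p = 0.00437), Pfkfb3, Aldoc, Gapdh (1.18 ± 0.28, adjusted p = 0.0102), Eno1 (0.76 ± 0.24, adjusted p = 0.0395) and pyruvate kinase Pkm (1.27 ± 0.27, adjusted p = 0.00525). Pfkfb3, which makes the activator of phosphofructokinase, was at 28.8, 22.1, 29.4, 8.79 and 9.39 CPM in CAF1 and 7.89, 8.12, 4.37, 10.4 and 4.35 in CAF2, log2 fold change 1.51 ± 0.38, adjusted p = 0.0145. Its CAF1 libraries of tumours 10 and 11 lay within the CAF2 range. The aldolase Aldoc was at 18.6, 15.9, 115, 9.67 and 12.04 CPM in CAF1 and 1.37, 11.5, 0.756, 1.64 and 0.926 in CAF2, log2 fold change 3.51 ± 0.91, adjusted p = 0.0166. The Aldoc mean in CAF1 rested largely on tumour 8, and in CAF2 on tumour 6.

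Of the genes of lactate and pyruvate, Ldha, which makes lactate, was at 1094, 1839, 2329, 1114 and 1378 CPM in CAF1 and 792, 935, 943, 880.3 and 754 in CAF2, log2 fold change 0.87 ± 0.26, adjusted p = 0.0330. Ldhb, the dehydrogenase subunit that favours lactate use, was at 69.9, 57.5, 126, 55.3 and 55.6 CPM in CAF1 and 30.7, 28.97, 46.8, 20.1 and 18.2 in CAF2, log2 fold change 1.35 ± 0.30, adjusted p = 0.00661. For both subunits every CAF1 library exceeded every CAF2 library. The lactate exporter Slc16a3 (MCT4) was at 39.2, 55.98, 32.9, 28.6 and 16.3 CPM in CAF1 and 6.20, 7.88, 9.74, 21.1 and 3.98 in CAF2, log2 fold change 1.83 ± 0.41, adjusted p = 0.00766. Slc16a1 (MCT1), which carries lactate either way, was at 54.2, 32.9, 61.7, 31.1 and 32.2 CPM in CAF1 and 61.02, 53.5, 56.5, 73.1 and 52.7 in CAF2 and did not pass the test (adjusted p = 0.150). Of the 2 transporters the exporter alone was called.

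Among other hypoxia-induced genes, Hilpda, a lipid droplet protein, rose by 1.64 ± 0.27 (SE, adjusted p = 0.00102), Ankrd37 by 1.87 ± 0.57 (adjusted p = 0.0376) and the MYC antagonist Mxi1 by 0.57 ± 0.17 (adjusted p = 0.0322). Adm, which encodes the vasodilator peptide adrenomedullin, went the other way, at 82.8, 118, 73.8, 362 and 369 CPM in CAF1 and 551, 424, 697, 629 and 1314 in CAF2, log2 fold change -1.83 ± 0.50, adjusted p = 0.0211. No CAF1 library reached the lowest CAF2 library for Adm, and CAF1 of tumours 10 and 11 stood above the other CAF1 libraries. Bnip3, Ndrg1, P4ha1 and P4ha2 did not pass the test.

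**Figure D2:**
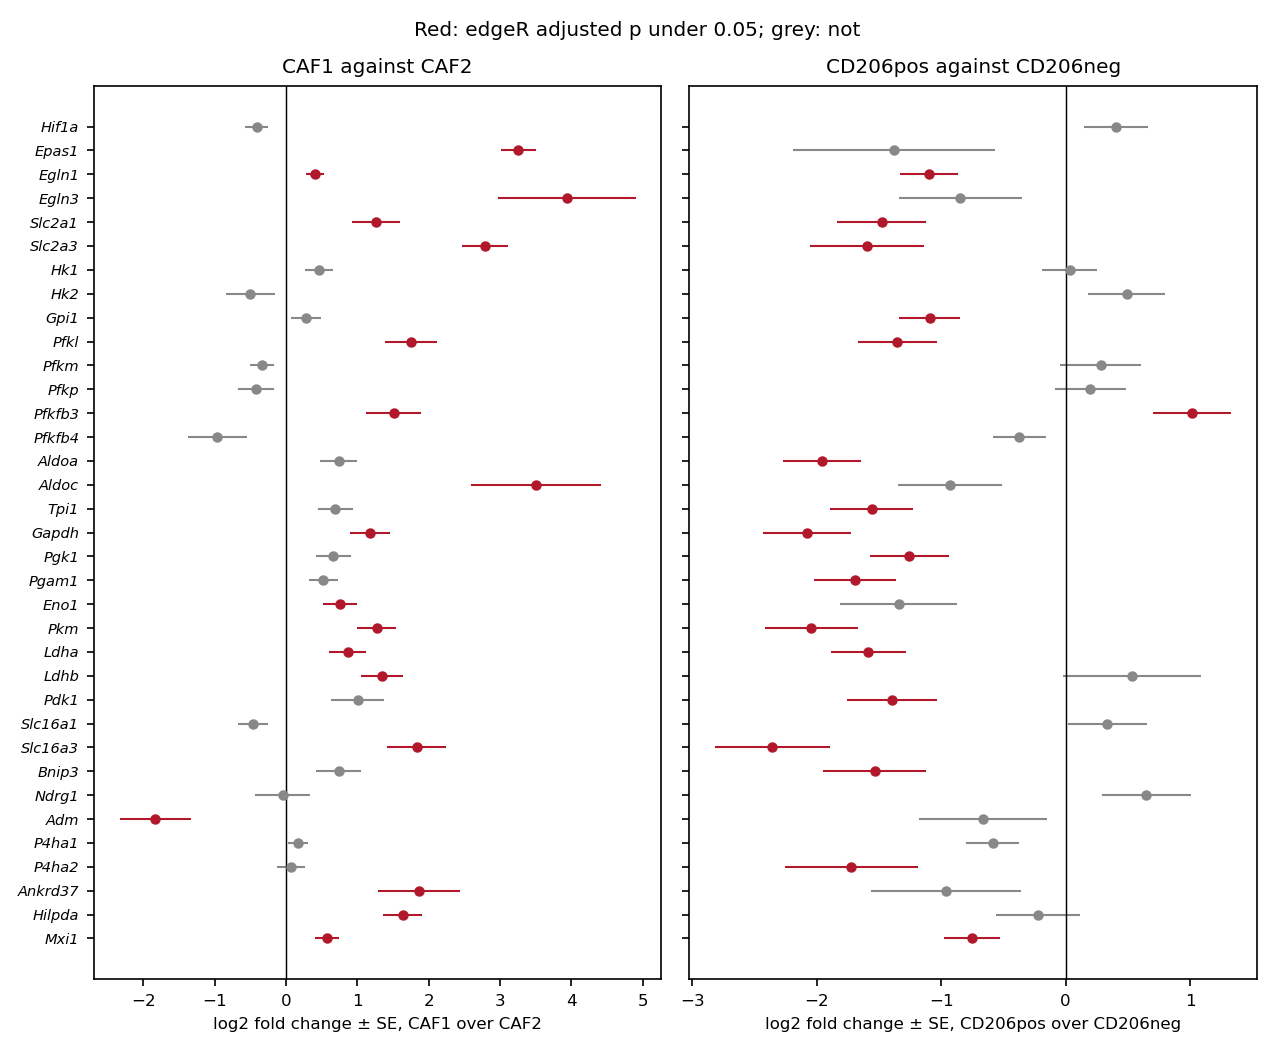
Log2 fold change (x axis) with its SE (bars) for each of the 35 genes (y axis) in 2 comparisons, CAF1 over CAF2 on the left and CD206pos over CD206neg on the right. Red points have an edgeR adjusted p under 0.05 and grey points do not. On the left 17 red points lie above 0 and Adm below, on the right 17 lie below 0 and Pfkfb3 above.

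Other genes of the pathways, from lists written out beside the 35, were also compared between CAF1 and CAF2. Of 27 tested other hypoxia genes, 6 were higher, led by the carbonic anhydrase Car12 (4.79 ± 1.03 SE), the mTOR inhibitor Ddit4 (3.35 ± 0.42) and Stc2 (2.50 ± 0.43), and 1, Selenbp1, was lower (-1.11 ± 0.21). Of 24 tested other genes of glycolysis and pyruvate, Bpgm (2.02 ± 0.34) and Pdk3 (0.54 ± 0.13) were higher and Galm lower (-1.85 ± 0.25), with a list median of -0.01. Of 17 tricarboxylic acid cycle genes, Idh2 was higher (0.68 ± 0.17) and Sucla2 lower (-0.48 ± 0.15). The shares of all genes were 10.9% higher and 8.59% lower in CAF1.

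Of the 18 calls, 6 held under every one of 24 alternatives: Epas1, Slc2a3, Pfkl, Gapdh, Pkm and Hilpda. The number called fell to 11 without the CAF2 library of tumour 11, and to 11, 10 and 8 with both libraries of tumour 5, 6 or 8 left out, and in these 4 settings Adm was no longer called. All genes called ran from 1663 to 2390 with a library or tumour left out, against 2370 with none left out. CAF1 libraries also held more pericyte marker RNA (7 genes, 512 to 1588 CPM, against 81.7 to 111 in CAF2) and more myoepithelial RNA (4 genes, 82.1 to 2757 CPM, against 0.0713 to 9.33), beside the luminal epithelial RNA given above, and the part of these cells in the result was not tested.

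In the macrophages, CD206neg cells stood above CD206pos cells in 17 of the 35 genes and below them in 1, Pfkfb3. Over all 11052 genes tested, 5.85% were lower and 8.85% higher in CD206pos. The median log2 fold change, CD206pos over CD206neg, was -1.09 for the 35 genes and 0.02 for all. The lower genes took in both glucose transporters, 4 of 11 upper and 4 of 5 lower glycolytic genes, 3 of 5 genes of lactate and pyruvate, and Egln1, Bnip3, P4ha2 and Mxi1.

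Slc2a1 was at 282, 166, 146, 263 and 121 CPM in CD206neg, 125, 95.3, 119, 114 and 23.6 in CD206hi and 72.3, 64.4, 101, 59.6 and 51.4 in CD206pos, with log2 fold change -1.48 ± 0.36, adjusted p = 0.00994 for CD206pos over CD206neg. All CD206neg libraries were above all CD206pos libraries, while CD206hi of tumour 11 was the lowest of the 15. Slc2a3 was sparse throughout, at 8.63, 4.11, 5.12, 6.55 and 4.55 CPM in CD206neg, 2.62, 0.735, 5.02, 1.36 and 1.31 in CD206hi and 1.33, 2.61, 2.40, 1.37 and 1.93 in CD206pos (log2 fold change -1.60 ± 0.46, adjusted p = 0.0259).

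Of the hexokinases, Hk2 was at 77.9, 84.5, 106, 64.5 and 66.2 CPM in CD206neg, 85.2, 109, 46.6, 53.7 and 48.8 in CD206hi and 86.1, 184, 59.8, 148 and 81.95 in CD206pos, and passed none of the 3 tests between macrophage groups. Hk1 was at 40.4, 21.8, 20.9, 28.4 and 26.5 CPM in CD206neg, 49.6, 31.04, 30.6, 24.8 and 36.1 in CD206hi and 29.5, 25.7, 20.1, 31.8 and 34.1 in CD206pos, and passed none either. Of the later enzymes, Aldoa (-1.96 ± 0.32), Tpi1 (-1.56 ± 0.33), Pgam1 (-1.69 ± 0.33) and Pkm (-2.04 ± 0.37) were all lower in CD206pos, with adjusted p of 4.52e-04, 0.00424, 0.00201 and 0.00128. Gapdh was at 335, 533, 347, 784 and 487 CPM in CD206neg, 138, 201, 411, 249 and 103 in CD206hi and 76.2, 126, 132, 154 and 97.1 in CD206pos (log2 fold change -2.08 ± 0.35, adjusted p = 6.63e-04). Gpi1, Pfkl and Pgk1 were lower in CD206pos by 1.09 ± 0.24 (adjusted p = 0.00592), 1.35 ± 0.32 (adjusted p = 0.00782) and 1.26 ± 0.32 (adjusted p = 0.0126).

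Ldha was at 2219, 2948, 1962, 4245 and 2840.3 CPM in CD206neg, 1034, 985, 2306, 1562 and 859 in CD206hi and 891, 886, 1046, 952 and 955 in CD206pos (log2 fold change -1.58 ± 0.31, adjusted p = 0.00186). The CD206pos libraries lay in a narrow band below every CD206neg library, and CD206hi of tumour 8 reached the CD206neg range. The exporter Slc16a3 had the largest fall of the set, from 234, 207, 109, 283 and 158 CPM in CD206neg to 47.8, 20.7, 66.9, 30.7 and 25.3 in CD206pos, with 78.9, 34.6, 120.5, 109.8 and 16.2 in CD206hi (log2 fold change -2.36 ± 0.46, adjusted p = 0.00207). Slc16a1 was at 25.5, 15.2, 15.1, 22.9 and 17.8 CPM in CD206neg, 21.98, 17.1, 15.2, 23.6 and 31.3 in CD206hi and 41.1, 18.5, 14.5, 10.6 and 38.3 in CD206pos and was not called. Ldhb was low in all 3 groups, at 1.07, 8.23, 4.70, 6.27 and 7.65 CPM in CD206neg, 3.05, 12.2, 7.34, 7.69 and 10.1 in CD206hi and 1.02, 13.05, 5.94, 10.2 and 9.66 in CD206pos. In tumour 5 it was lower in each macrophage group than in the other tumours. Pdk1, the kinase that holds pyruvate back from the mitochondrion, was lower in CD206pos by 1.40 ± 0.36 (adjusted p = 0.0144).

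Pfkfb3 ran against the rest, at 106, 83.7, 91.1, 91.2 and 107 CPM in CD206neg, 210.2, 218, 84.05, 98.4 and 334 in CD206hi and 273, 157, 128, 155 and 259.7 in CD206pos (log2 fold change 1.02 ± 0.31, adjusted p = 0.0355), and every CD206pos library was above every CD206neg library. Hif1a was at 194, 118, 114, 116 and 176 CPM in CD206neg, 171, 127, 121, 94.5 and 146 in CD206hi and 327, 166, 150.2, 114 and 195 in CD206pos, and passed none of the 3 tests. Epas1 was near the floor of detection, at 3.47, 0.968, 0.854, 2.09 and 1.65 CPM in CD206neg, 2.09, 4.12, 3.35, 2.38 and 0.656 in CD206hi and 0, 2.83, 0.479, 0.125 and 0.483 in CD206pos. Egln3 was at 12.7, 7.99, 5.87, 11.4 and 5.17 CPM in CD206neg, 5.84, 12.9, 10.3, 3.39 and 1.75 in CD206hi and 5.93, 2.83, 9.39, 3.37 and 1.93 in CD206pos, with wide overlap. Egln1 was lower in CD206pos by 1.10 ± 0.23 (adjusted p = 0.00386) and the mitophagy receptor Bnip3 by 1.54 ± 0.41 (adjusted p = 0.0182). P4ha2 and Mxi1 were the remaining lower genes, with log2 fold changes of -1.72 ± 0.53 and -0.75 ± 0.23.

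**Figure D3:**
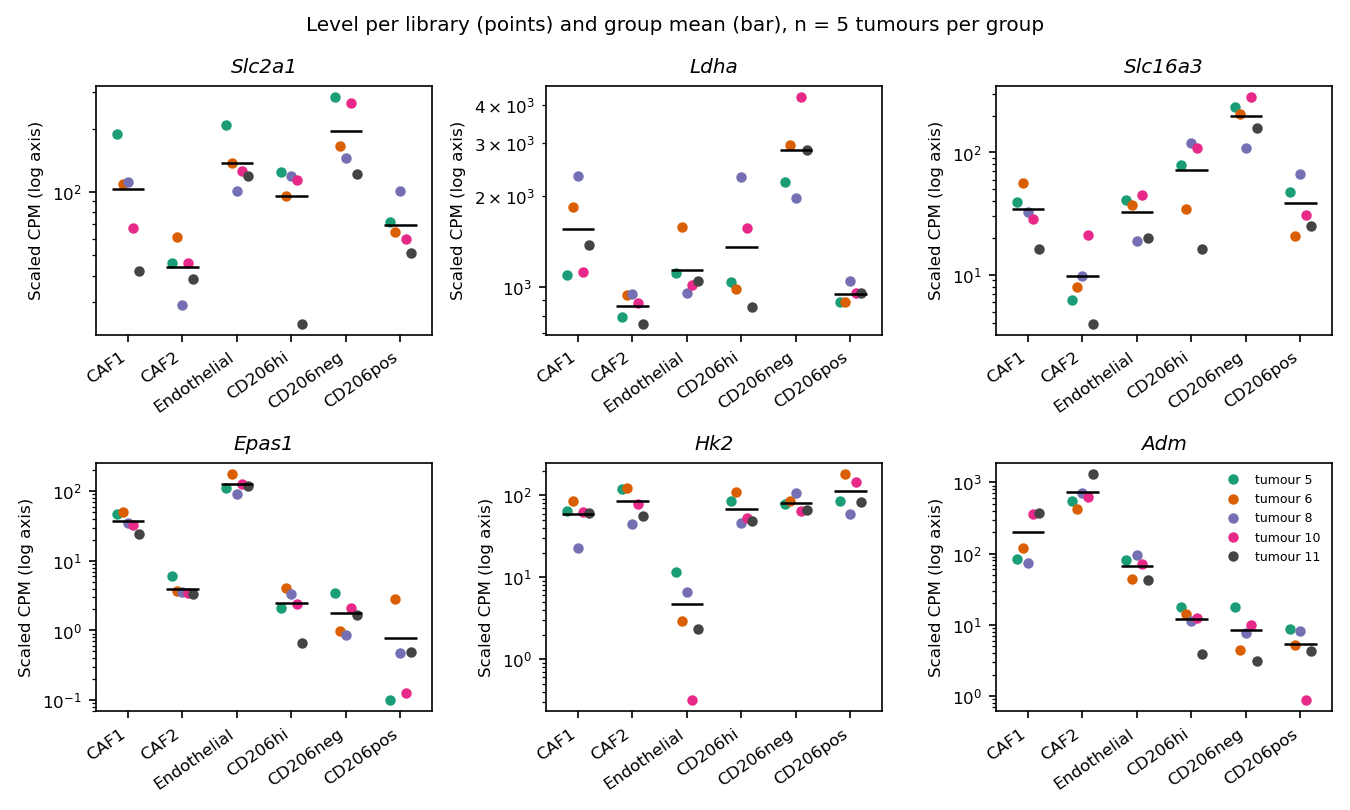
Scaled CPM on a log y axis for 6 of the genes, by sorted group on the x axis. Points are libraries coloured by tumour, bars are group means (n = 5), and the only level of 0 among these genes (Epas1, CD206pos of tumour 5) is drawn at 0.1. Slc2a1, Ldha and Slc16a3 are highest in CD206neg, Epas1 in endothelial cells and Adm in CAF2, and Hk2 is lowest in endothelial cells.

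Of the 18 calls, 7 held under all 25 alternatives (Aldoa, Tpi1, Gapdh, Pgam1, Pkm, Ldha and Slc16a3). Scaling by library totals alone left 8 (1 higher, 7 lower), and leaving out all libraries of tumour 5 or 10 left 10 and 9, the latter 2 without Pfkfb3. All genes called numbered 920, 1074 and 765 in these settings, against 1625 in the main fit. With totals alone the median of all genes moved from 0.02 to 0.19, and the share of higher genes among all calls from 60.2% to 83.3%. For the CD206neg libraries of tumours 6 and 8 the column name says MHC class II high, against the low of the sample label, and 16 genes were called without this pair. Cd2, the 1 gene of the T cell list of 4 that was analysed, was at 6.23 to 54.8 CPM in CD206pos (median 41.4), 0.772 to 13.2 in CD206hi and 0.279 to 2.66 in CD206neg. Luminal epithelial RNA was at 26.7 to 513 CPM in CD206pos and 32.1 to 1064 in CD206neg. The part of these cells in the result was not tested.

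Between CD206hi and CD206neg, 6 of the 35 genes were lower in CD206hi and none higher, against 3.90% and 6.14% of all genes, and the median log2 fold change was -0.59 for the 35 genes and 0.02 for all. Gpi1 was at 517, 317, 336, 486 and 281 CPM in CD206neg and 258, 187, 294, 213 and 139.6 in CD206hi, lower in 5 of 5 tumours (log2 fold change -0.82 ± 0.24, adjusted p = 0.0383). The other 5 were lower in 4 of 5 tumours: Aldoa by 1.10 ± 0.31 (adjusted p = 0.0272), Gapdh by 1.17 ± 0.34 (adjusted p = 0.0357), Pkm by 1.18 ± 0.37 (adjusted p = 0.0470), Ldha by 1.07 ± 0.30 (adjusted p = 0.0282) and Slc16a3 by 1.45 ± 0.45 (adjusted p = 0.0464). For each of the 5 the exception was tumour 8, where the CD206hi library was the higher, and the groups overlapped. With tumour as a block, 18 of the 35 genes were called (1791 of all genes, against 1110 without the block). Without single libraries the number ran from 0 (without CD206hi of tumour 6 or 11, or CD206neg of tumour 10) through 1 (CD206hi of tumour 5), 2 (CD206neg of tumour 6) and 3 (CD206hi of tumour 10, CD206neg of tumour 5 or 11) to 11 (CD206hi of tumour 8), and with all libraries of a tumour left out it was 13 for tumour 8 and 0 for any other. It was 1 without the CD206neg libraries of tumours 6 and 8, and 0 with library totals alone, where the share of higher genes among all calls moved from 61.2% to 78.7%. All genes called numbered 545 and 729 in these 2 settings, and ran from 535 to 1164 with a library or tumour left out.

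None of the 35 genes passed the test between CD206hi and CD206pos, where edgeR called 0.190% of all genes (0.00905% higher and 0.181% lower in CD206hi). At an unadjusted p under 0.05, 9 genes were higher and 1 lower in CD206hi, against 7.25% of all genes in either direction, and DESeq2 called none of the 35. The median log2 fold change was 0.40 for the 35 genes and 0.00 for all genes.

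Of 27 tested other hypoxia genes, CD206pos cells had 6 lower and 3 higher than CD206neg, and CD206hi cells 2 lower and 3 higher. The largest falls in CD206pos were in the glycogen synthase Gys1 (-1.37 ± 0.42 SE), Ccng2 (-1.29 ± 0.34) and Ero1a (-1.26 ± 0.40). Vegfa and Vhl, named for CD206pos after their values were seen, were the lower genes of CD206hi. Vegfa, the vessel growth factor, was lower in both (-1.24 ± 0.34 SE and -1.71 ± 0.34), and Vhl, which targets HIF for destruction, as well (-1.12 ± 0.22 and -1.03 ± 0.22). Higher in both were the heme oxygenase Hmox1 (1.49 ± 0.49 and 2.10 ± 0.50), the transferrin receptor Tfrc (1.94 ± 0.44 and 2.23 ± 0.45) and Selenbp1 (1.52 ± 0.36 and 1.74 ± 0.36). Of 25 tested other genes of glycolysis and pyruvate, 5 were lower in CD206pos and 4 in CD206hi, none was higher. They included the enolase retrocopy Eno1b (-1.92 ± 0.32 and -1.26 ± 0.32), Tigar in CD206pos (-1.26 ± 0.38), Slc2a6 in CD206hi (-1.02 ± 0.28) and, in both, Bsg, the chaperone of the lactate transporters (-1.09 ± 0.25 and -0.84 ± 0.24). Of 17 tricarboxylic acid cycle genes only Fh1 was called, higher in both (0.73 ± 0.21 in each). The 2 comparisons share the CD206neg libraries. Against CD206neg, 8.85% of all genes were higher and 5.85% lower in CD206pos, and 6.14% and 3.90% in CD206hi.

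Between lineages, fibroblasts (CAF1 and CAF2) had 10 of the 35 genes higher and 19 lower than macrophages, where 68.1% of all 13610 genes tested were called, 37.3% higher and 30.8% lower. The median log2 fold change was -0.60 for the 35 genes and 0.10 for all genes. The contrast averages groups that differ: of the 19 lower genes, 10 had a higher mean in CAF1 than in CD206pos, among them Gapdh (141 against 117 CPM), Pkm (858 against 566) and Aldoa (956 against 671), and 2, Slc2a1 and Ldha, a higher mean in CAF1 than in CD206hi. None of the 19 had a higher mean in CAF2 than in any macrophage group. All 5 lower glycolytic genes and 6 of 11 upper ones were lower in fibroblasts, with log2 fold changes for Gapdh (-1.31 ± 0.22), Pfkl (-1.08 ± 0.23), Pkm (-1.0 ± 0.21), Pgam1 (-0.93 ± 0.18), Pgk1 (-0.93 ± 0.19), Gpi1 (-0.86 ± 0.15), Tpi1 (-0.84 ± 0.19) and Pfkfb4 (-1.34 ± 0.28), for Eno1 (-1.56 ± 0.27 SE) and Aldoa (-0.79 ± 0.18). Pfkfb3 had the largest fall (log2 fold change -3.68 ± 0.27, adjusted p = 3.00e-13), then Hilpda, at 135, 123, 149, 82.8 and 55.97 CPM in CAF1, 26.9, 39.6, 48.9, 26.3 and 36.02 in CAF2, 499, 564, 382, 759 and 414 in CD206neg, 298, 548, 253, 313 and 201 in CD206hi and 291, 842, 279, 478 and 342 in CD206pos (log2 fold change -2.76 ± 0.22, adjusted p = 4.28e-12). No fibroblast library reached a macrophage library for either gene. Also lower were Slc16a3 (-2.15 ± 0.31), Bnip3 (-1.29 ± 0.29), Ankrd37 (-1.04 ± 0.38), Slc2a1 (-0.69 ± 0.23), Pdk1 (-0.60 ± 0.23) and Ldha (-0.41 ± 0.17). Mxi1 was lower too (-2.04 ± 0.15). Higher in fibroblasts were Adm, at 17.7, 4.36, 7.58, 9.76 and 3.10 CPM in CD206neg, 17.9, 13.97, 11.5, 12.3 and 3.94 in CD206hi and 8.58, 5.22, 8.05, 0.874 and 4.35 in CD206pos (log2 fold change 5.52 ± 0.35, adjusted p = 1.91e-14), and the collagen prolyl hydroxylase subunit P4ha2. P4ha2 was at 95.1, 127, 66.8, 136 and 139.7 CPM in CAF1, 107, 106, 117, 125 and 88.98 in CAF2, 24.6, 9.68, 11.6, 31.2 and 9.30 in CD206neg, 8.02, 12.9, 14.7, 18.8 and 2.41 in CD206hi and 6.95, 3.70, 10.9, 2.25 and 1.77 in CD206pos (log2 fold change 3.44 ± 0.28, adjusted p = 3.20e-12). Ldhb (2.73 ± 0.37), Epas1 (3.08 ± 0.30), Slc2a3 (1.25 ± 0.30), Slc16a1 (1.2 ± 0.20), Pfkm (1.83 ± 0.14), Hk1 (0.58 ± 0.14), Ndrg1 (0.62 ± 0.26) and P4ha1 (0.27 ± 0.12) were the remaining higher genes. Slc2a3 and P4ha1 were on average lower in CAF2 than in CD206neg (2.66 against 5.79 CPM and 133 against 140), and higher in fibroblasts in the other pairs of groups. Of the 29 calls 22 held under all 40 alternatives.

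Endothelial cells, set against fibroblasts, had 14 genes higher and 7 lower, where 45.2% of all genes were called, 23.0% higher and 22.1% lower. The median log2 fold change was 0.40 for the 35 genes and 0.04 for all genes, and 13 of the 21 calls held under all 30 alternatives. Epas1 was at 113, 177, 89.9, 128 and 118 CPM, above every other library of the study (log2 fold change 3.34 ± 0.32, adjusted p = 1.09e-09). Ankrd37 was at 40.4, 31.2, 39.3, 46.8 and 21.9 CPM against 10.3, 4.94, 11.996, 4.07 and 1.77 in CAF1 and 3.94, 0.485, 2.01, 1.07 and 1.67 in CAF2 (log2 fold change 3.34 ± 0.46, adjusted p = 7.44e-07), and the groups did not overlap. Hk2 was lowest here, at 11.5, 2.95, 6.54, 0.316 and 2.37 CPM (log2 fold change -3.88 ± 0.50, adjusted p = 1.94e-07), while Hk1 was at 122, 84.3, 66.9, 83.5 and 72.2 (log2 fold change 0.94 ± 0.18, adjusted p = 1.11e-04). Pfkfb4, another maker of the phosphofructokinase activator, was at 0.696, 0.393, 1.73, 0 and 0.254 CPM against 7.20, 5.27, 2.86, 3.63 and 3.90 in CAF1 and 19.4, 10.2, 5.96, 4.49 and 5.28 in CAF2 (log2 fold change -3.27 ± 0.47, adjusted p = 1.12e-06), while Pfkfb3 was at 80.96, 59.9, 34.6, 53.9 and 50.6 and higher (log2 fold change 2.24 ± 0.29, adjusted p = 2.73e-07). The fold change of Pfkfb4 rests on few counts in endothelial cells and depends on the prior count of the fit.

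Slc2a1 was at 207, 136, 101, 125 and 119 CPM in endothelial cells and higher than in fibroblasts (log2 fold change 1.03 ± 0.30, adjusted p = 0.00545), and Slc2a3, at 14.3, 1.77, 9.17, 2.77 and 3.98, was not called. Hif1a was at 406, 204, 170.1, 209.6 and 272 CPM (log2 fold change 0.60 ± 0.21, adjusted p = 0.0207) and Egln3 at 43.3, 34.4, 58.3, 41.1 and 27.9 (log2 fold change 2.24 ± 0.56, adjusted p = 0.00153). Both stood above fibroblasts on average, with overlap. Slc16a1 was at 23.7, 12.8, 10.01, 9.41 and 11.8 CPM, below all fibroblast libraries (log2 fold change -1.89 ± 0.29, adjusted p = 3.96e-06), and Slc16a3 at 40.7, 37.2, 18.8, 44.8 and 20.1 was not called. Ldha, at 1110.0, 1575, 954, 1015 and 1043 CPM, and Ldhb, at 23.04, 26.5, 145, 11.3 and 23.5, were not called either. The Ldhb level in the endothelial library of tumour 8 was several times that of the other 4, and without that library its log2 fold change moved from 0.00 to -1.15. That library also had the most pericyte marker RNA of the endothelial group (1044 CPM) and the least endothelial marker RNA (1054 CPM), and the part of this in the result was not tested. Adm was at 81.3, 43.3, 94.1, 72.2 and 41.9 CPM (-2.52 ± 0.48, adjusted p = 8.03e-05), and P4ha1 and P4ha2 were lower by 1.07 ± 0.17 (adjusted p = 4.85e-06) and 2.37 ± 0.40 (adjusted p = 1.55e-05). The remaining higher genes were Aldoc (2.13 ± 0.65), Pfkl (1.70 ± 0.28), Pkm (1.11 ± 0.27), Ndrg1 (1.07 ± 0.34), Pdk1 (1.04 ± 0.30), Hilpda (0.87 ± 0.26) and Gapdh (0.79 ± 0.27), and the muscle-type phosphofructokinase Pfkm was lower (-0.51 ± 0.19). Aldoc rested on the library of tumour 8 (158 CPM, others 3.72 to 32.7) and was not called without it (adjusted p = 0.384). The contrast averages CAF1 and CAF2, which differ. Hilpda averaged 114 CPM in endothelial cells, 109 in CAF1 and 35.5 in CAF2, and Gapdh 163, 141 and 63.0. Luminal epithelial RNA was at 158 to 2124 CPM in endothelial cells, 234 to 1809 in CAF1 and 9.82 to 509 in CAF2, and its part in the result was not tested.

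Against macrophages, endothelial cells had 14 of the 35 genes higher and 14 lower, where 61.3% of all genes were called, 36.5% higher and 24.7% lower. The median log2 fold change was 0.11 for the 35 genes and 0.17 for all genes, and 16 of the 28 calls held under all 35 alternatives. The contrast averages macrophage groups that differ. Pfkl, called higher in endothelial cells, averaged 135 CPM there, 146 in CD206neg, 81.3 in CD206hi and 56.7 in CD206pos. Aldoa, called lower, averaged 890 CPM in endothelial cells, 2621 in CD206neg, 1216 in CD206hi and 671 in CD206pos. The largest differences were in Epas1 (log2 fold change 6.42 ± 0.32, adjusted p = 1.33e-16) and Adm (log2 fold change 3.0 ± 0.37, adjusted p = 3.75e-08) upward, and in Pfkfb4 (log2 fold change -4.61 ± 0.48, adjusted p = 1.35e-09) and Hk2 (log2 fold change -4.15 ± 0.50, adjusted p = 2.24e-08) downward. Pfkfb4 was at 28.1, 16.5, 21.6, 13.4 and 18.8 CPM in CD206neg, 13.9, 10.4, 16.6, 14.8 and 17.5 in CD206hi and 17.7, 11.3, 16.8, 15.2 and 14.7 in CD206pos. None of these 4 overlapped between the lineages. Ankrd37, at 13.6, 4.84, 8.97, 11.01 and 5.38 CPM in CD206neg, 9.33, 11.03, 16.6, 9.73 and 0.875 in CD206hi and 4.29, 1.09, 11.2, 4.24 and 0.966 in CD206pos, was higher in endothelial cells (2.30 ± 0.41), as were Ldhb (2.73 ± 0.42), Egln3 (2.63 ± 0.50), Aldoc (1.97 ± 0.58), Ndrg1 (1.69 ± 0.30), Hk1 (1.52 ± 0.17), Pfkm (1.32 ± 0.17), Slc2a3 (1.13 ± 0.36), P4ha2 (1.07 ± 0.33), Pfkp (0.76 ± 0.22), Hif1a (0.72 ± 0.19) and Pfkl (0.62 ± 0.27). Aldoc here too was not called without the endothelial library of tumour 8 (adjusted p = 0.443). The remaining lower genes were Mxi1 (-1.93 ± 0.20), Hilpda (-1.89 ± 0.29), Pfkfb3 (-1.44 ± 0.31), Slc16a3 (-1.34 ± 0.40), Pgam1 (-1.22 ± 0.24), Tpi1 (-0.94 ± 0.25), P4ha1 (-0.80 ± 0.16), Slc16a1 (-0.69 ± 0.26), Gpi1 (-0.58 ± 0.19) and Aldoa (-0.53 ± 0.22), with Eno1 and Bnip3, lower by 1.11 ± 0.34 (adjusted p = 0.00590) for Eno1 and 1.76 ± 0.40 (adjusted p = 3.26e-04) for Bnip3.

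The lineage counts moved with the scaling. By library totals alone the all-gene median went from 0.10 to 0.41 for fibroblasts over macrophages, from 0.04 to 0.46 for endothelial cells over fibroblasts and from 0.17 to 0.89 for endothelial cells over macrophages. The shares of higher genes among all calls went from 54.8% to 68.9%, 51.0% to 73.5% and 59.7% to 82.9%, and the higher and lower counts of the 35 became 12 and 14, 17 and 5, and 18 and 5. Aldoa, Gpi1 and Slc16a1, called lower in endothelial cells than in macrophages, then had positive log2 fold changes of 0.19, 0.10 and 0.04. Of 17 tricarboxylic acid cycle genes, 9 were lower in fibroblasts and 8 in endothelial cells than in macrophages and none higher. Hk3, a hexokinase of blood cells, averaged 46.5 CPM in macrophages, 0.0991 in endothelial cells and 0 in fibroblasts. Of 28 tested other hypoxia genes, 7 were higher and 9 lower in fibroblasts than in macrophages, with Stc2 (6.26 ± 0.44 SE) and Angptl4 (5.78 ± 0.31) at one end and Hmox1 (-3.84 ± 0.32), Sap30 (-3.80 ± 0.33) and the lipid droplet coat protein Plin2 (-3.51 ± 0.25) at the other. Endothelial cells had 6 of the 28 higher and 8 lower than fibroblasts, led by Sap30 (2.43 ± 0.36), the carbonic anhydrase Car9 (2.36 ± 0.57) and Ddit4 (2.15 ± 0.33) upward and Angptl4 (-2.56 ± 0.42), Rora (-2.12 ± 0.26) and Selenbp1 (-1.93 ± 0.37) downward. Against macrophages they had 6 higher, led by Stc2 (4.80 ± 0.49), Car12 (3.54 ± 0.69) and Angptl4 (3.22 ± 0.32), and 7 lower, led by Hmox1 (-4.73 ± 0.46), Plin2 (-3.28 ± 0.34) and Selenbp1 (-2.92 ± 0.38). Of 27 tested other genes of glycolysis and pyruvate, 10 were higher and 8 lower in fibroblasts than in macrophages. That is close to the shares of all genes, 37.3% higher and 30.8% lower. In endothelial cells 2 of the 27 were higher and 10 lower than in fibroblasts, and 3 higher and 12 lower than in macrophages. The shares of all genes there were 23.0% and 22.1% against fibroblasts, and 36.5% and 24.7% against macrophages. Bpgm, a mutase of red cells and other tissues, was higher than in macrophages in both fibroblasts (3.91 ± 0.27) and endothelial cells (3.37 ± 0.30), and the transporter Slc2a6 was lower in both (-4.47 ± 0.49 and -3.93 ± 0.63). Pgm2 was higher and Eno2 lower in endothelial cells than in fibroblasts (1.75 ± 0.18 and -2.98 ± 0.50).

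Ratios of 2 related genes within a library need no scaling between libraries, and 11 pairs were compared over the 7 contrasts. Of the 77 ratios, 40 had an adjusted p under 0.05 by an exact two-sided permutation test of 5 libraries or lineage means against 5, whose smallest p is 0.00794 (0.0197 adjusted over the 77). This test takes no account of the tumours that both sides share. Ratios of other pairs of genes were not computed, so the 40 has no background share and describes these pairs only. In the contrasts between lineages, 45.2% to 68.1% of all single genes were called. An exact paired test within the 5 tumours, added after seeing the data, cannot go below 0.0625, so none of the 77 could pass it, and 38 of the 40 were at that value. A mean log2 ratio of Hk2 to Hk1 of -4.87 ± 1.84 (SD, n = 5) set endothelial cells apart from the averages of fibroblasts (0.58 ± 0.78) and macrophages (1.46 ± 0.47), both at the smallest p of the unpaired test. Epas1 to Hif1a was -0.98 ± 0.61 in endothelial cells, -1.97 ± 0.40 in CAF1 and -5.60 ± 0.25 in CAF2, and CAF1 and CAF2 differed at the smallest p. Ldhb to Ldha was -4.43 ± 0.40 in CAF1, -4.97 ± 0.47 in CAF2 and -9.20 ± 1.05 in CD206neg macrophages, with fibroblasts above macrophages at the smallest p. Slc16a3 to Slc16a1 was 3.31 ± 0.37 in CD206neg, 0.70 ± 1.14 in CD206pos, -0.34 ± 0.71 in CAF1 and -2.82 ± 0.74 in CAF2. Over the 6 groups the ratio was highest in CD206neg and lowest in CAF2, and CAF1 against CAF2 and CD206pos against CD206neg each differed at the smallest p. P4ha2 to P4ha1 was -0.43 ± 0.53 in CAF1 and -4.44 ± 0.80 in CD206pos, and fibroblasts were above macrophages by 3.40. Pfkm to Pfkl was highest in CAF2 at -0.38 ± 0.43 and lowest in CD206neg at -5.35 ± 0.49. With any 1 tumour left out, none of the 77 passed, since 4 against 4 gives a larger smallest p.

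**Figure D4:**
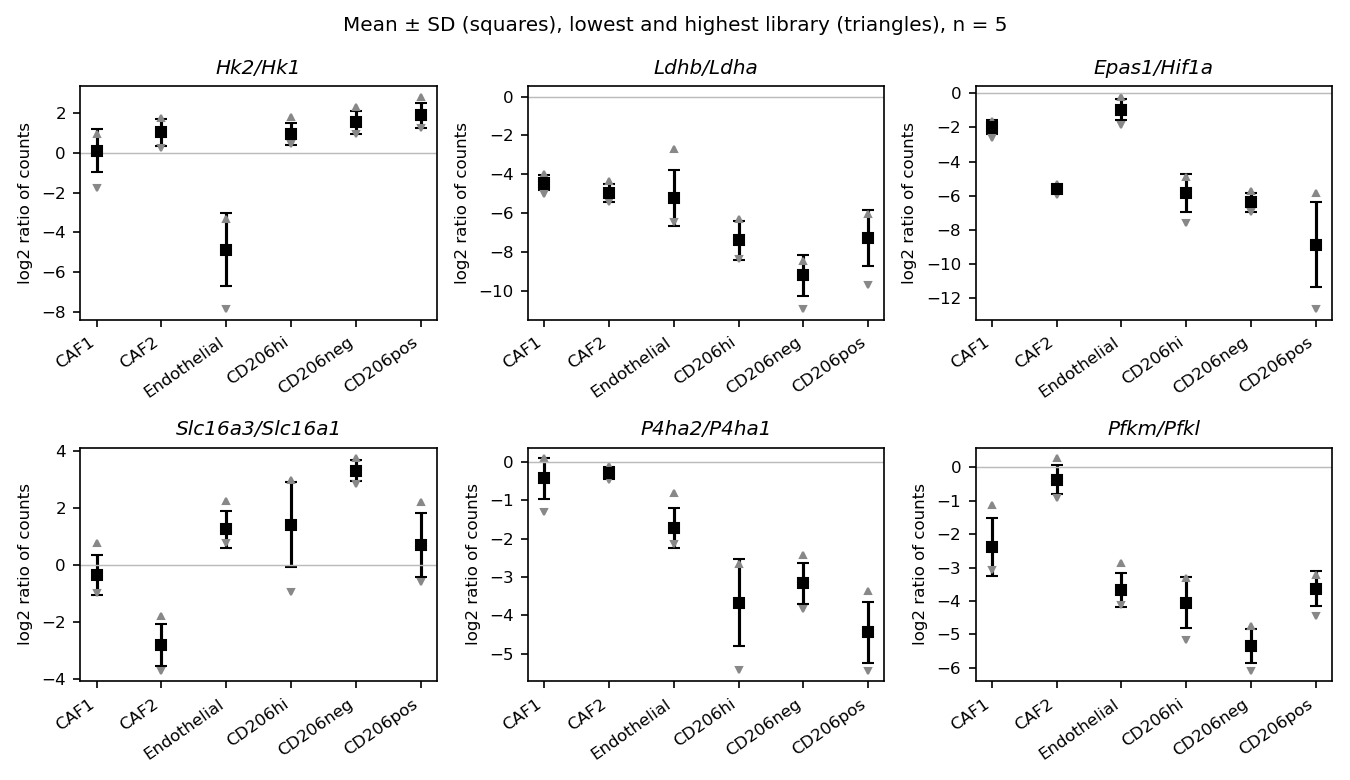
Log2 ratio of counts (y axis, pseudocount 0.5) for 6 pairs of related genes by sorted group (x axis). Squares are means with SD over 5 tumours and triangles the lowest and highest library. The Hk2 to Hk1 ratio is below 0 in every endothelial library, and the Slc16a3 to Slc16a1 ratio is above 2 in every CD206neg library.

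The tumours differed as well. Over all 6 groups, 12 of the 35 genes differed between tumours (group and tumour as additive terms, 4 degrees of freedom), against 22.0% of all genes: Hif1a, Slc2a1, Gpi1, Pfkp, Aldoc, Tpi1, Pgk1, Eno1, Pdk1, Bnip3, Ndrg1 and Ankrd37. Within macrophages 11 did, against 17.8% of genes. Within the CD45-negative groups edgeR called none, against 0.201% of genes. DESeq2 called 4 of the 35 there and 1364 of all genes. At an unadjusted p under 0.05 in edgeR there were 11 of 35, with no share over all genes to set beside them. The mean log2 deviation of the 35 genes from their group mean was 0.17 in tumour 5, 0.00 in tumour 6, 0.18 in tumour 8, -0.02 in tumour 10 and -0.33 in tumour 11. Tumour 11 was below the group mean in 6 of 6 groups, from -0.17 in CD206pos to -0.66 in CD206hi, and tumour 5 above it in 5 of 6.

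Bnip3 deviated by 0.24, -0.35, 0.71, 0.03 and -0.64 in tumours 5, 6, 8, 10 and 11 over the 6 groups, Ndrg1 by 0.48, 0.55, -0.46, 0.01 and -0.59, and Aldoc by -0.57, 0.66, 1.08, -0.78 and -0.39. These were the 3 genes whose tumour difference held under all 40 alternatives (adjusted p = 0.00623, 0.00519 and 0.00671). Bnip3 was highest in tumour 8 and lowest in tumour 11, while Ndrg1 was highest in tumours 5 and 6, so the genes did not share 1 order of tumours. Ankrd37 spanned 1.80 on the log2 scale between tumours 8 and 11, and Slc2a1 1.21 between tumours 5 and 11. Genes of the response to tissue dissociation (8 genes) had their highest sum in tumour 11 in 5 of 6 groups, up to 38165 CPM in CD206hi and 45349 in CAF1. Proliferation genes (5 genes) had their highest sum in tumour 8 in every group, and luminal epithelial genes in tumour 6 in every group. The part of these lists in the result was not tested. Scaling mattered for these counts: by library totals alone 31 of the 35 genes (6219 of all genes) differed over the 6 groups and 30 (4809) within macrophages. Without tumour 11 the 12 became 6. Within macrophages the 11 became 4 without CD206hi of tumour 11 (1209 of all genes) or CD206pos of tumour 6 (853). The number was 6 without CD206hi of tumour 5 (1206 of all genes), 5 without CD206pos of tumour 8 and 25 without CD206neg of tumour 8. With a library or tumour left out, all genes called ran from 1251 to 2986 over the 6 groups, against 2998 with none left out. Within macrophages they ran from 798 to 2681. With tumour 5 or 11 left out of the macrophages, 4 and 5 remained. Over all genes, 798 and 1160 then remained, against 1972 with all tumours.

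**Figure D5:**
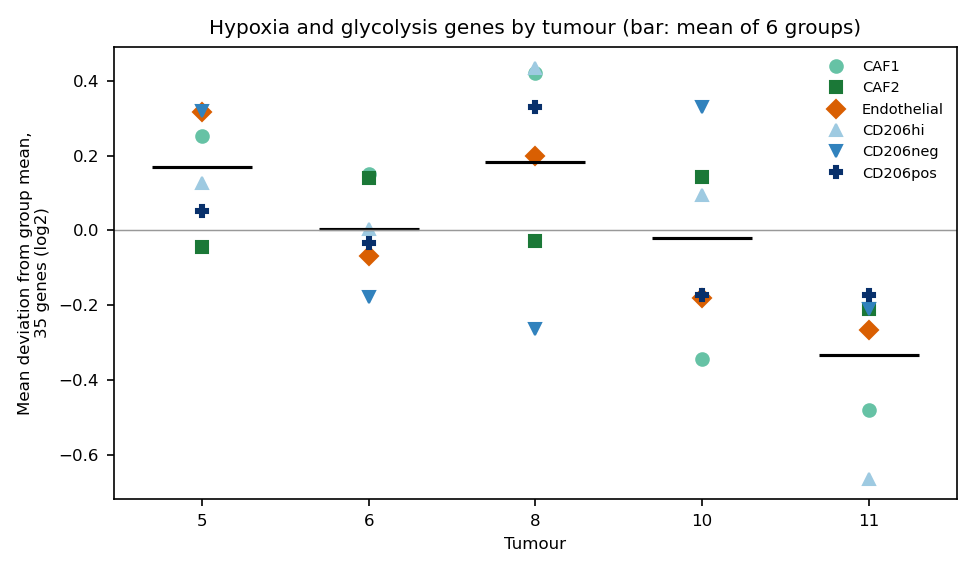
Mean log2 deviation of the 35 genes from their group mean (y axis) for each tumour (x axis). Symbols are the 6 sorted groups and bars the mean over groups. All 6 groups of tumour 11 lie below 0.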

How the data were processed

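Bulk RNA-seq was made from 6 sorted populations of each of 5 tumours, 30 libraries of 6292411 to 11957076 counts. Per the submitters' processing notes, the tools named are Trimmomatic 0.36, HISAT2 2.0.4, SAMtools 1.3.1 and DESeq2 1.26, with build mm10. Which tool counted reads, and whether it used strand, is not stated in the labels or notes used here. The authors deposited raw counts per gene, and a second matrix of signal values that equal those counts divided by 1 size factor per library (largest relative spread 1.3e-09). Entrez identifiers matched symbols for 14104 of 14118 genes. Every gene in the matrix had at least 72 counts in all, so genes below that were not analysed here.

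From the counts, edgeR 4.0.16 (R 4.3.3) was run with its default low count filter, TMM scaling, quasi-likelihood F tests and Benjamini-Hochberg adjustment over all genes of a fit, without a tumour term. CAF1 and CAF2 were fitted alone (10 libraries), the 3 macrophage groups together (15), and lineages and tumours over all 30 libraries. The same tumours gave all groups, so replicate numbers pair samples. Deviations from group means correlated at 0.0205 to 0.381 within tumours for CAF, 0.111 to 0.648 for macrophages and 0.0213 to 0.574 overall. The 35 genes and all lists were chosen with earlier results of these data known. Genes given in every library were 12 set by name, plus the 2 largest rises and 2 largest falls called in 5 of 5 tumours per comparison. Ratios of related genes used a pseudocount of 0.5 on counts. The alternatives included a tumour block, DESeq2 1.42.0, RLE or library totals as scaling, no filter or at least 50 counts in 5 libraries, voom and limma 3.58.1, limma on log2 of the deposited signal plus 1, a different set of fitted libraries, and removal of every library in turn. Leaving out whole tumours and a paired test of the ratios were added after seeing the data. Scripts were tested on simulated data with known changes of 2-fold and 4-fold. There, 2.33% to 6.61% of edgeR calls between groups were false, and 9.47% to 15.5% of DESeq2 calls. These simulations between groups held no tumour effect and changed only a small part of the genes, so the rates need not hold for the real libraries. For CD206hi against CD206pos, edgeR found 33.0% of 2-fold and 94.9% of 4-fold changes. The edgeR test of tumours within CD45-negative groups found 8.0% of 2-fold and 57.0% of 4-fold changes set in 1 tumour.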

Additional observations from a re-analysis of the deposited data

Results flagged for a closer look

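In each group of 5 libraries, the highest or lowest level of a gene was marked where its gap to the next library was large against the whole range. Of 210 groups, 17 were marked, each for a high library. The usual chance rate is about 1 in 20 for independent groups with a normal spread. The rule was run on CPM and the 210 groups share libraries, so that rate is a rough guide only. It was not run over all genes, so the 17 and the share of each tumour have no background rate. Tumour 8 supplied 9 of the 17. These were Aldoc in CAF1 (115 CPM, others 9.67 to 18.6) and endothelial cells (158, others 3.72 to 32.7), Ldhb in CAF1 (126, others 55.3 to 69.9) and endothelial cells (145, others 11.3 to 26.5), and Bnip3 in endothelial cells (111, others 23.04 to 40.4). The others of tumour 8 were Eno1 in CD206hi (91.4, others 10.1 to 32.8) and CD206pos (55.4, others 19.01 to 24.8), Aldoa in CD206hi (2228 CPM, others 722 to 1137) and Slc2a3 in CAF2 (4.45, others 2.01 to 2.43).

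In tumour 6, Epas1 was high in CD206pos (2.83 CPM, others 0 to 0.483), Aldoc in CAF2 (11.5, others 0.756 to 1.64), Ndrg1 in CAF2 (169, others 55.2 to 86.8) and Ldha in endothelial cells (1575, others 954 to 1110.0). In tumour 10, Tpi1 (2010.2 CPM, others 888 to 1034) and Pgam1 (1476, others 610.1 to 843) were high in CD206neg. In tumour 5, Epas1 was high in CAF2 (5.96 CPM, others 3.33 to 3.64) and Slc16a1 in endothelial cells (23.7, others 9.41 to 12.8).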

How the results depend on the processing

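The causes of the changes below were not tested. With tumour as a replicate block, the number of the 35 genes called was 20 for CAF1 against CAF2 (2445 of all genes). It was 18 for CD206hi against CD206neg (1791 of all genes), 0 for CD206hi against CD206pos (97) and 23 for CD206pos against CD206neg (2800). Fibroblasts against macrophages gave 30 (9746 of all genes). Endothelial cells gave 23 against fibroblasts (6949 of all genes) and 29 against macrophages (8870). By library totals alone CD206hi against CD206neg gave 0 of the 35 and 729 genes, and CD206pos against CD206neg 8 and 920. Tumour differences then gave 31 and 6219 over all groups, 30 and 4809 within macrophages, and 6 genes in all within CD45-negative groups. Aldoa (0.19), Gpi1 (0.10) and Slc16a1 (0.041) reversed between endothelial cells and macrophages under library totals. Ldhb between endothelial cells and fibroblasts went to -1.15 without the endothelial library of tumour 8. DESeq2 called 13 of the 35 for CD206hi against CD206neg and 83 genes for CD206hi against CD206pos, 18 and 3142 for tumours within macrophages, and 4 and 1364 within CD45-negative groups. For CD206hi against CD206pos voom gave 5 genes and the fit of all 30 libraries 36, and that fit gave 10 of the 35 for CD206hi against CD206neg. Without the CD206neg libraries of tumours 6 and 8, CD206hi against CD206neg gave 1 of the 35 and 545 genes, and CD206pos against CD206neg 930 genes.

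With a library or tumour left out, the genes called ran from 1663 to 2390 for CAF1 against CAF2, 535 to 1164 for CD206hi against CD206neg, 0 to 48 for CD206hi against CD206pos, 765 to 2070.0 for CD206pos against CD206neg, 8573 to 9441 for fibroblasts against macrophages, and 4674 to 6250.0 and 7367 to 8485 for endothelial cells against fibroblasts and macrophages. For the 35 genes the ranges were 8 to 21, 0 to 13, 0 to 0, 9 to 21, 24 to 30, 17 to 22 and 24 to 28 in the same order. Counts that moved by over 1.5 times without a single library included 11 of the 35 for CAF1 against CAF2 (without the CAF2 library of tumour 11), 11 for CD206hi against CD206neg (without CD206hi of tumour 8) and 853 genes for tumour differences within macrophages (without CD206pos of tumour 6). With a whole tumour left out they included 11 of the 35 for CAF1 against CAF2 (tumour 5), 652 genes for CD206hi against CD206neg (tumour 6), and 1074, 1064 and 818 genes for CD206pos against CD206neg (tumours 5, 6 and 11). Tumour differences without a whole tumour gave 1888 genes over all groups (tumour 6), 1099 and 1160.0 within macrophages (tumours 6 and 11), and 53, 2 and 2 within CD45-negative groups (tumours 8, 10 and 11). For tumours the ranges were 1251 to 2986 genes and 6 to 18 of the 35 over all groups, 798 to 2681 and 4 to 25 within macrophages, and 0 to 54 and 0 to 0 within CD45-negative groups. Ratios of related genes past the threshold numbered 0 to 0, against 40 with all tumours, and 0 in the exact paired test with tumour as a replicate block, which cannot pass with 5 tumours. Depth limits genes at a few CPM or less, such as Epas1 in macrophages and Pfkfb4 in endothelial cells.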
